A study of Bos taurus with 6 samples.

Results

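The miR-17-92 cluster is a group of 6 neighbouring microRNA (miRNA) hairpins cut from a single primary transcript. Its members were taken by name from the deposited tables as bta-miR-17-5p, bta-miR-17-3p, bta-miR-18a, bta-miR-19a, bta-miR-20a, bta-miR-19b and bta-miR-92a, which are 7 of 1028 bovine miRNAs listed, and all 7 were found. They were measured by small RNA sequencing of bovine granulosa cells, the follicular cells around the oocyte, aspirated from follicles of 3 to 6 mm and cultured for 24 h at 37 °C. The cells then stayed at 37 °C (control) or were moved to 42 °C (heat stress, HS) for another 24 h, with 3 libraries in each group. The ovaries came from a slaughterhouse, and the labels give no breed or age, and the medium of both groups held fetal bovine serum depleted of exosomes. The libraries are called biological replicates in the labels, which do not say whether each came from separate animals, so p-values measure the spread between these libraries.

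An miRNA guides a silencing complex to messenger RNAs that pair with its seed, a short stretch near its 5′ end, and lowers their stability or translation. The cluster carries 4 seed families: miR-17-5p and miR-20a belong to the miR-17 family, miR-18a to the miR-18 family, miR-19a and miR-19b to the miR-19 family, and miR-92a to the miR-92 family. miR-17-3p comes from the opposite arm of the miR-17 hairpin and has a seed of its own. The cluster is known for promoting proliferation and survival of cells, with the proapoptotic protein BIM among its targets, and it has been linked to proliferation of bovine granulosa cells. Related hairpins lie in the miR-106a-363 and miR-106b-25 clusters.

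In the RefSeq annotation of the assembly ARS-UCD2.0 the 6 hairpins stand in the order MIR17, MIR18A, MIR19A, MIR20A, MIR19B and MIR92A-1, between the protein-coding genes SLITRK5 and GPC5, and no annotated gene overlaps them. bta-miR-19b and bta-miR-92a each have 2 hairpins there. MIR19B-2 and MIR92A-2, their second hairpins, belong to the miR-106a-363 cluster. A mature read of either miRNA cannot be told apart by its origin, so their values may hold reads from both clusters. For scale, the miRNAs found only in the paralogous cluster were low, as bta-miR-106a, bta-miR-18b, bta-miR-20b and bta-miR-363 had at most 29 reads in any library, where bta-miR-19b had at least 2646 and bta-miR-92a at least 48857. These counts do not bound the reads from the second hairpins, as miRNAs of a shared transcript can differ widely in level.

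The libraries held 2076239 to 4590971 recovered reads, and control replicate 1 held the fewest. In the paper's read statistics it had more quality-passed reads than the other control libraries. Its share of reads mapped to annotated miRNAs was the lowest of all cell libraries. The effect of this on the results was not tested. Values are normalised CPM, read values set to a common library size, which the authors scaled with TMM, the trimmed mean of M-values. The messenger RNAs that define granulosa cells are outside this assay, so the cell type label could not be checked directly. bta-miR-202, known as enriched in gonads and looked up after the values had been seen, averaged 2274 normalised CPM at 37 °C and 1795 at 42 °C. Of miRNAs typical of other cells, the 6 listed for blood summed to 634.7 to 721.6 normalised CPM in control and 515 to 722.5 in HS libraries. Among those known from red cells, bta-miR-451 and bta-miR-144 had at most 8 and 1 reads, while bta-miR-486 had up to 181. Among those known from white cells, bta-miR-223 ranged from 259.4 to 311 in control and 195.8 to 267 in HS libraries, bta-miR-142-5p from 263.2 to 428.5 and 247.9 to 425.1, and bta-miR-142-3p had up to 111 reads. The 5 listed for theca or stroma summed to 1323.6 to 2083.2 in control and 2007.8 to 2191.8 in HS libraries, mostly from bta-miR-199a-3p. The groups of bta-miR-199a-5p did not overlap (as for 20% of all tested miRNAs), at 250 to 324.4 in control and 326.8 to 372.7 in HS libraries, and log2 fold changes were positive for 3 of the 5 and negative for bta-miR-143 and bta-miR-145. Enough reads for a test were found for 4 of the blood list and 5 of the other. Of these, 0 passed the thresholds given below, which called 3.01% and 2.19% of all tested miRNAs. Their part in the results was not tested.

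All members were well above the floor of 3 reads, which corresponds to 0.639 to 1.465 normalised CPM. The lowest value of any member was 67.9, from 139 reads of bta-miR-19a in control replicate 1. Over all 6 libraries the members ranked between 13th and 162nd of 755 miRNAs with reads. Mature miRNAs are of nearly equal length, so their levels can be set side by side, although ligation and amplification differ between sequences. bta-miR-92a was the most abundant, followed by bta-miR-20a, bta-miR-19b, bta-miR-17-5p, bta-miR-18a, bta-miR-19a and bta-miR-17-3p. Each of the first 5 was above the next in 6 of 6 libraries, and the ranges of such neighbours did not overlap. bta-miR-19a and bta-miR-17-3p were not separated, as bta-miR-19a was higher in 3 of 6 libraries.

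The members thus spanned from a mean of 99.3 normalised CPM for bta-miR-17-3p to 18169.8 for bta-miR-92a. Of these, bta-miR-17-3p is the lesser arm of its hairpin, and bta-miR-92a may hold reads from its second hairpin.

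**Figure D1:**
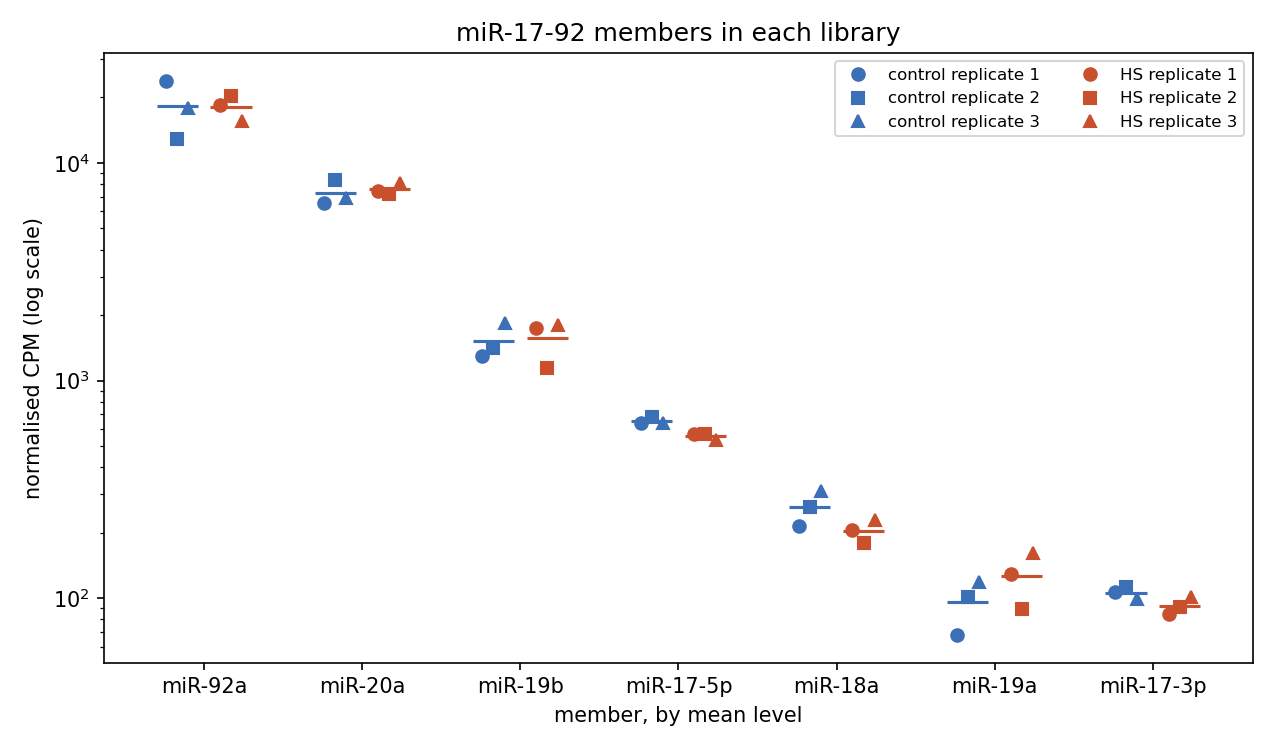
Normalised CPM (log axis) of each member in each of the 6 libraries, with control in blue and HS in orange, symbols by replicate number and a horizontal line at each group mean. The order from miR-92a to miR-18a is the same in all 6 libraries, and only miR-17-5p has every HS point below every control point.

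To ask whether HS changed the cluster, all miRNAs with enough reads were tested together with limma on log2(value + 1), with Benjamini-Hochberg adjustment over the 365 tested. None of the 7 members passed the study's threshold, which asks for both an adjusted p no higher than 0.2 and a log2 change of 1 or more in either direction, and none was under an adjusted p of 0.05, against 3.01% and 2.19% of all tested miRNAs. At an unadjusted p under 0.05 the count of members was also 0, against 14.5% of tested miRNAs, and edgeR and DESeq2 on the recovered reads called 0 members as well. Log2 fold changes were positive for 4 members and negative for 3 (1 and 6 with upper quartile factors, which shift all tested miRNAs downward), with a median of 0.03 beside a median of -0.0015 over all tested miRNAs. The split was 3 and 4 with edgeR quasi-likelihood and without HS replicate 1, 2 or 3. It was 2 and 5 without control replicate 1 or 2. Adjusted p-values (limma) of the members ran from 0.453 to 0.969. The 95% interval of the log2 fold change lay within 1 in size for 6 of 7 members, so a doubling or halving is outside these intervals. The exception was bta-miR-19a. In such bulk samples a change in the makeup of the cells and a change in miRNA per cell cannot be told apart.

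**Figure D2:**
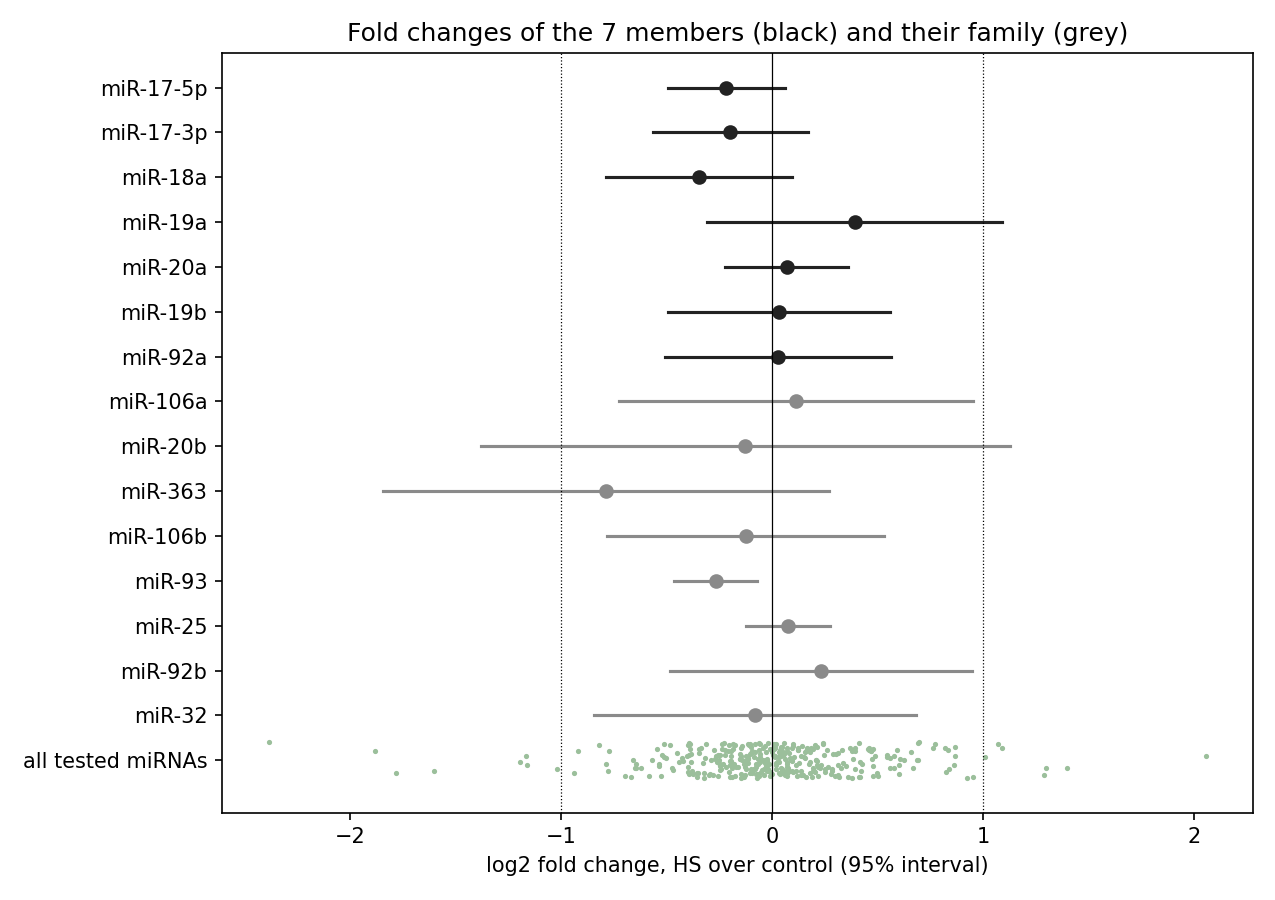
Log2 fold change of HS over control with its 95% interval (limma) for the 7 members in black and the 8 tested relatives in grey, with the 365 tested miRNAs as points in the bottom row (vertical jitter only) and dotted lines at a log2 change of 1 in size. The intervals of 6 members lie inside the dotted lines and all 7 include 0.

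bta-miR-17-5p, the guide arm of the first hairpin and a founding member of the miR-17 seed family, stood at 635.7, 676.9 and 636.9 normalised CPM in replicates 1, 2 and 3 kept at 37 °C. At 42 °C the replicates gave 571, 569.2 and 534.5, listed by replicate number here and below. Every HS library was below every control library. The means were 649.8 ± 23.5 and 558.2 ± 20.6 (SD, n = 3 each), and the log2 fold change was -0.22, with an SE of 0.117 and a limma adjusted p of 0.453, or -0.41 with upper quartile factors (adjusted p = 0.299). It was the only one of the 7 members whose groups did not overlap, while the groups did not overlap in 20% of tested miRNAs, or in 10.4% when those lower in HS cells are counted alone. Its spread was small, with a coefficient of variation of 3.61% in control and 3.69% in HS cells, beside a counting error of 2.77% at its lowest read count.

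bta-miR-17-3p, from the opposite arm, had 106.4, 113 and 98.9 normalised CPM at 37 °C against 84.6, 90.8 and 101.7 at 42 °C. HS replicate 3 lay within the control range. The log2 fold change was -0.20, with a 95% interval from -0.57 to 0.17 (limma adjusted p = 0.651), or -0.38 with upper quartile factors.

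Both arms are cut from the same hairpin, so the share of reads on the 5p arm does not depend on how libraries were scaled. It was 85.7%, 85.7% and 86.6% at 37 °C against 87.1%, 86.2% and 84% at 42 °C. The 95% Wilson intervals of single libraries, which cover counting error only, were up to 3.52 percentage points wide. The difference of the means was -0.19 points (exact two-sided permutation test, p = 0.9, where the smallest possible p is 0.1). Its sign rested on single libraries, as it was 0.70 points without HS replicate 3, 0.10 without control replicate 3 and -0.85 without HS replicate 1. It lay between -0.42 and -0.33 without any other library and was -0.42 with reads summed over each group. No shift in arm use was thus detectable, and the 5p arm was the dominant product of the hairpin in every library.

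bta-miR-20a shares its seed family with miR-17-5p and was about 12.3 times as abundant on average. It had 6517.3, 8331.3 and 6927.2 normalised CPM at 37 °C against 7411.7, 7201.5 and 8125.3 at 42 °C. The groups overlapped, and all HS values lay within the control range. The log2 fold change was 0.07, with a 95% interval from -0.22 to 0.36 (limma adjusted p = 0.907), or a 0.857-fold to 1.28-fold change. The sign turned with upper quartile factors and without control replicate 1.

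bta-miR-18a, which differs from the miR-17 family in its seed and is counted separately, had 214.3, 262.2 and 309.5 normalised CPM at 37 °C against 205.1, 180.3 and 228.2 at 42 °C. HS replicate 3 was above control replicate 1, so the groups overlapped. The log2 fold change was -0.35 ± 0.186 (SE, limma adjusted p = 0.453), or -0.53 with upper quartile factors and -0.22 without control replicate 3.

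bta-miR-19a and bta-miR-19b are the members of the miR-19 family, whose seed differs from those of the rest of the cluster. bta-miR-19a had 67.9, 101.2 and 119.2 normalised CPM at 37 °C against 129.4, 88.9 and 161.6 at 42 °C. The highest library was 2.38 times the lowest, the widest such range among the members, and its groups overlapped. Its log2 fold change was 0.39, with a 95% interval from -0.31 to 1.09 (limma adjusted p = 0.641). The value was 0.16 without control replicate 1, 0.20 without HS replicate 3, 0.62 without HS replicate 2 and 0.21 with upper quartile factors. It was the largest in size among the members here and in 14 of 20 alternatives, and bta-miR-18a was the largest in the other 6. Its coefficient of variation was 27.1% in control cells, below the 30.1% of bta-miR-92a, and 28.7% in HS cells, against a counting error of 8.48% at its lowest read count.

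bta-miR-19b had 1291.8, 1406.2 and 1836.9 normalised CPM at 37 °C against 1737, 1142.7 and 1802.6 at 42 °C. HS replicate 2 was the lowest and control replicate 3 the highest of the 6. The log2 fold change was 0.03, with a 95% interval from -0.49 to 0.56 (limma adjusted p = 0.969). Its sign turned under several alternatives, so no direction is given.

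bta-miR-92a, the last hairpin and a member of the miR-92 seed family, had 23853.2, 12896.5 and 17903.4 normalised CPM at 37 °C against 18420.9, 20380.0 and 15565.0 at 42 °C. Control replicates 1 and 2 were the highest and the lowest of the 6 libraries, so every HS value lay between them. The log2 fold change was 0.03, with a 95% interval from -0.51 to 0.56 (limma adjusted p = 0.969), and here too the sign turned under other settings.

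Taking the members as a set, the summed level was 32686.7, 23787.4 and 27832.1 normalised CPM at 37 °C against 28559.8, 29653.4 and 26518.8 at 42 °C. The members thus held 2.81% ± 0.408 of all reads at 37 °C against 2.82% ± 0.149 at 42 °C (SD, n = 3 each). The groups overlapped and the control libraries were the more spread. bta-miR-92a made up 63.8% ± 9.39 of the sum in control and 64% ± 5.04 in HS cells, and bta-miR-20a 26.6% ± 7.69 and 27% ± 3.3. The other 6 members added to 9884.3 ± 1029.4 in control and 10122.0 ± 840.3 in HS cells. Without bta-miR-19b and bta-miR-92a, which have second hairpins, the remaining 5 members summed to 8372.7 ± 1001.5 and 8561.3 ± 528.6. Control replicate 1 had the highest sum with all members and the lowest of the 6 libraries without bta-miR-92a.

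**Figure D3:**
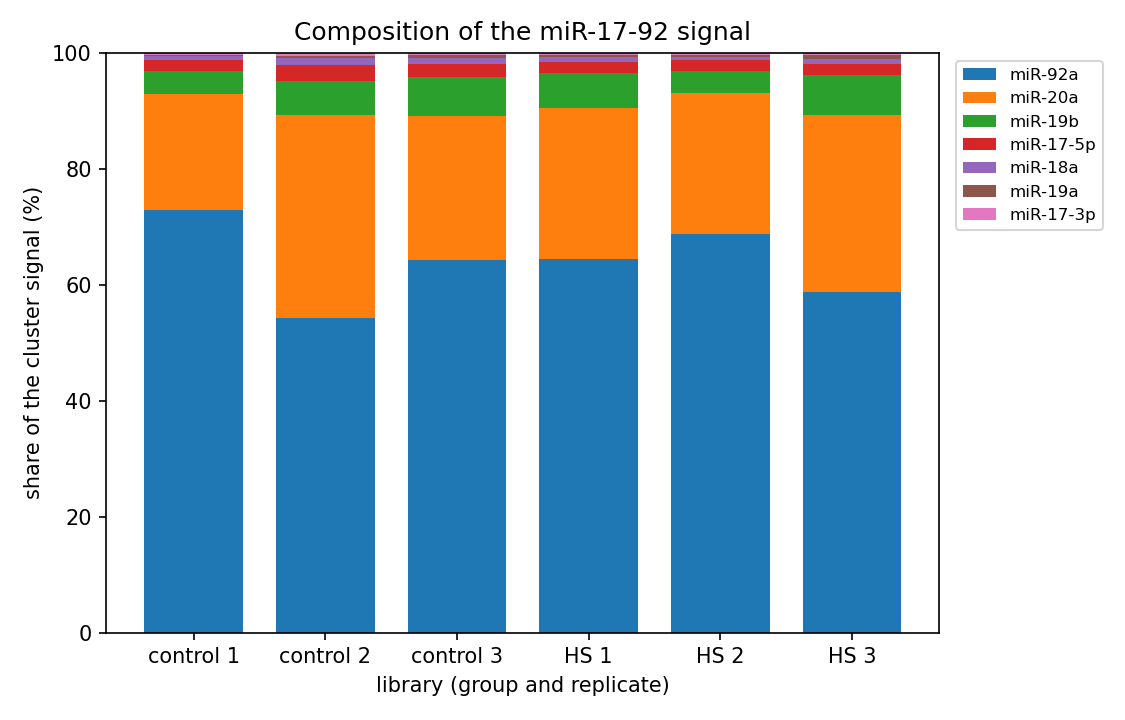
Share of the summed normalised CPM of the cluster (%, from 0) taken by each member in each library, as stacked bars. miR-92a and miR-20a fill most of every bar, and the miR-92a share runs from 54.2% in control replicate 2 to 73% in control replicate 1, with the 3 HS libraries in between.

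The members did not vary as 1 unit from library to library. In control replicate 1, bta-miR-92a was 0.42 above its own mean over the 6 libraries on the log2 scale, while bta-miR-19a was 0.66 below its own. In control replicate 2, bta-miR-92a was 0.47 below its mean and bta-miR-20a 0.17 above. Over the 21 pairs of members the SD of the log2 ratio across the 6 libraries ran from 0.124 for the arms of miR-17 to 0.666 for bta-miR-19a against bta-miR-92a, with a median of 0.341. The median was 0.49 over all 66430 pairs of tested miRNAs, and 0.383 over the pairs at least as abundant as the lowest member. These background ratios were taken on log2(value + 1) and those of the members on log2(value), so the measures differ for low miRNAs. Low reads widen such ratios, and the pairs share their libraries, so these are descriptions.

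**Figure D4:**
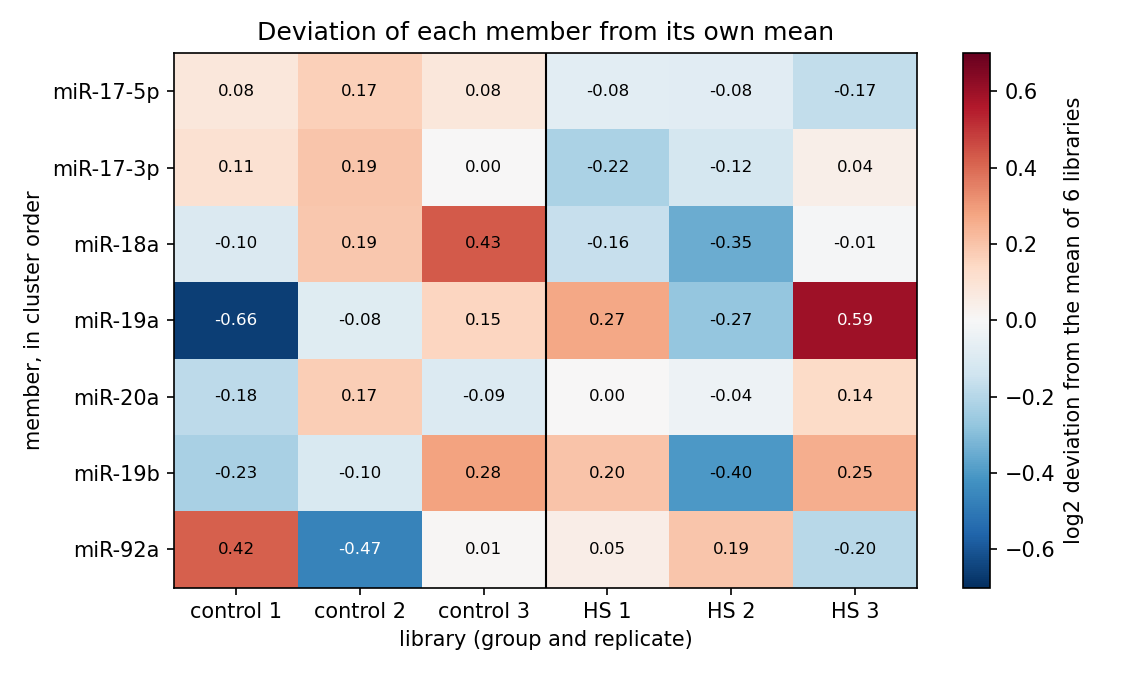
Deviation (log2) of each member from its own mean over the 6 libraries, in cluster order from top to bottom, with control left and HS right of the line. Both arms of miR-17 are at or above 0 in the control libraries, whereas miR-19a and miR-92a take opposite signs in control replicate 1 (-0.66 and 0.42) and in HS replicate 3 (0.59 and -0.20).

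Ratios between members do not depend on library scaling either, and were examined after the values had been seen. The log2 ratio did not overlap between groups for 6 of the 21 pairs (28.6%), where 21.3% of all pairs of tested miRNAs did not overlap. The share over all pairs was taken on log2(value + 1), so it depends somewhat on the scaling. These pairs were bta-miR-17-5p, bta-miR-17-3p and bta-miR-18a each against bta-miR-20a, bta-miR-18a against bta-miR-19a and bta-miR-19b, and bta-miR-19a against bta-miR-19b. bta-miR-17-5p was 9.75%, 8.13% and 9.19% of bta-miR-20a at 37 °C against 7.71%, 7.9% and 6.58% at 42 °C, a log2 difference of -0.29. bta-miR-18a was 3.16, 2.59 and 2.6 times bta-miR-19a at 37 °C against 1.59, 2.03 and 1.41 times at 42 °C, a log2 difference of -0.74. With 3 libraries in each group the exact two-sided permutation test cannot go below p = 0.1, which each of the 6 pairs reached, and adjusted over the 21 pairs their p was 0.35. These ratios are therefore given as a description.

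The relatives of the cluster were listed from knowledge of the family as 10 miRNAs. Of these, 8 passed the filter on low reads, bta-miR-18b had at most 2 reads in any library, and bta-miR-367 was listed at 0 in all 6. None of the 8 passed either threshold in limma (3.01% and 2.19% of tested miRNAs), edgeR or DESeq2, and 1 (12.5%) had an unadjusted p under 0.05, near the 14.5% of all tested miRNAs. Their log2 fold changes were positive for 3 and negative for 5 (1 and 7 with upper quartile factors), with a median of -0.10. The split was 5 and 3 without control replicate 2 or 3, and 4 and 4 without HS replicate 2 or 3.

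The relative under that unadjusted p was bta-miR-93, a miR-17 family member encoded within MCM7 in the miR-106b-25 cluster. It had 14952.9, 15127.2 and 14065.8 normalised CPM at 37 °C against 12080.3, 12650.4 and 11944.0 at 42 °C. Every HS library was below every control library, as for bta-miR-17-5p. The log2 fold change was -0.27 ± 0.0831 (SE), with a 95% interval from -0.46 to -0.07 and a limma adjusted p of 0.203, and the adjusted p ran from 0.154 to 0.524 under other settings.

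The groups overlapped for both of its neighbours on the transcript. bta-miR-25, a miR-92 family member from the same transcript, gave 12857.9, 13016.9 and 12243.1 at 37 °C against 14023.1, 13262.5 and 12885.4 at 42 °C, a log2 fold change of 0.08 (adjusted p from limma 0.825). bta-miR-106b was much lower, at 46.9 to 88.4 under control conditions against 54.7 to 70.3 under HS. The differences between these neighbours were not tested.

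bta-miR-17-5p kept a nearly constant proportion to bta-miR-93, at 4.25%, 4.48% and 4.53% of it at 37 °C against 4.73%, 4.5% and 4.47% at 42 °C. With an SD of the log2 ratio of 0.0489 over the 6 libraries, bta-miR-93 was the closest of 364 miRNAs to bta-miR-17-5p, and the other arm of the hairpin was the 20th. The median over the 364 was 0.331. These closest miRNAs of single members were looked up after the values had been seen.

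bta-miR-92a stood closer to bta-miR-92b, which has the same seed and a locus of its own, than to any other member of the cluster. The SD of the log2 ratio was 0.154, and bta-miR-92b was the 9th closest of 364 miRNAs. bta-miR-92b had 416, 192.7 and 326 normalised CPM at 37 °C against 356.7, 417.7 and 283.7 at 42 °C, so that control replicate 2 was the lowest library for both. bta-miR-125b was the closest, at 0.0818. How reads that fit several near-identical family members were assigned is not described in the sources used here, so values within a seed family are uncertain to that extent.

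**Figure D5:**
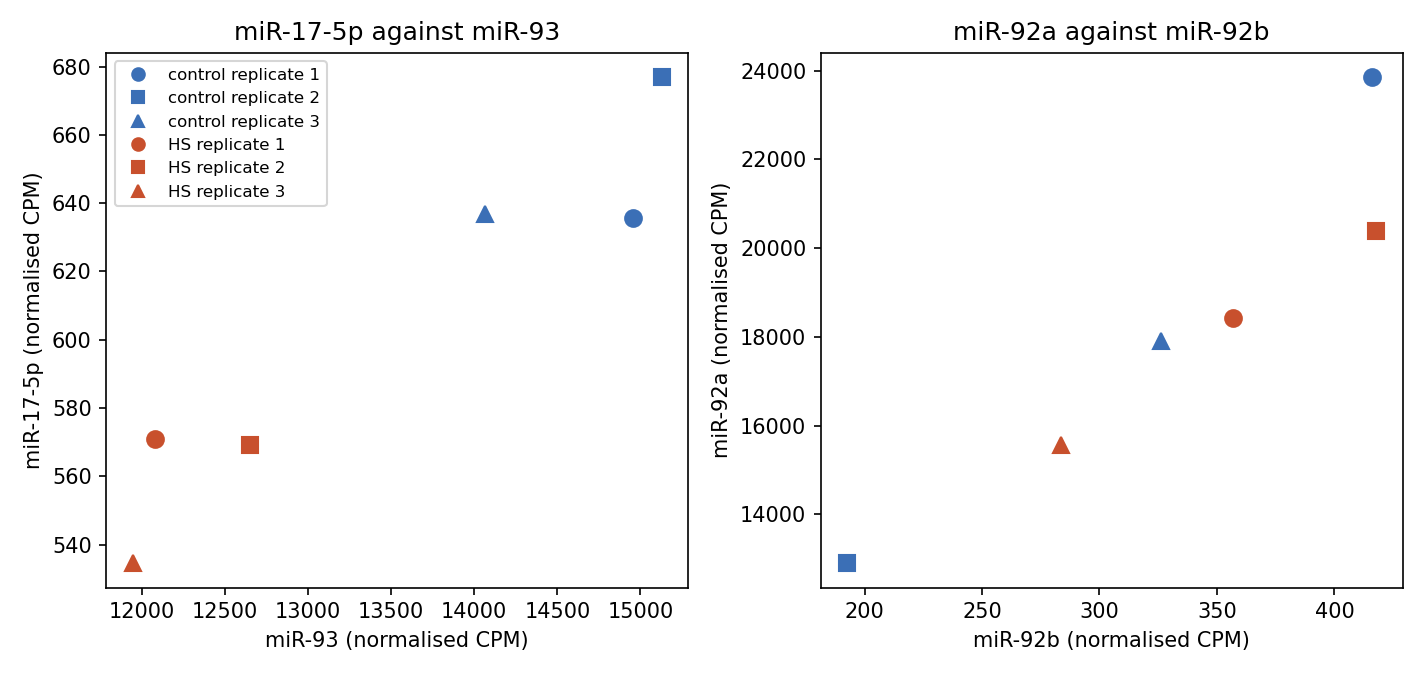
Normalised CPM of miR-17-5p against miR-93 (left) and of miR-92a against miR-92b (right), with 1 point per library, control in blue, HS in orange and symbols by replicate number. On the left the 3 HS points lie below and to the left of the 3 control points, while on the right the HS points lie between control replicates 2 and 1 in miR-92a.

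Across the 6 libraries the summed level of the cluster was followed most closely by bta-miR-11971, bta-miR-140, bta-miR-6520, bta-miR-542-5p and bta-miR-423-3p, with SDs of the log2 ratio of 0.057, 0.07, 0.0765, 0.0829 and 0.0892. The median over the 358 other tested miRNAs was 0.355. Against bta-miR-92a alone the same 5 miRNAs had SDs of 0.0979 to 0.193, each wider than against the sum. bta-miR-140 had means of 2367.8 in control and 2284.3 in HS cells. In contrast, bta-miR-11971 was low, at 15.3 and 14.4, and bta-miR-6520 was near the floor, at 3.52 and 3.3. Counting error at such low levels is wider than the SDs printed for bta-miR-11971 and bta-miR-6520, so their closeness may be chance.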

How the data were processed

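miRNA-enriched RNA of 6 granulosa cell samples was sequenced after ligation of adapters that carry unique molecular identifiers, with 100 ng of input and 16 PCR cycles. Per the labels and methods, the authors trimmed adapters (Cutadapt 1.11), collapsed reads by identifier, mapped them (Bowtie2 2.2.2, UMD3.1), assigned them to miRBase and applied TMM scaling in edgeR. The deposited signal is TMM-normalised CPM, which rests on the assumption that few miRNAs differ. In each library 100% of values were whole multiples of 1 step (tolerance 0.01 of a read), which gave the recovered reads. No pair of replicates agreed within sampling noise (chi-square per degree of freedom 84.3 to 431).

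miRNAs past the default filterByExpr filter of edgeR 4.0.16 were tested with limma 3.58.1 (trend, pseudocount 1) in R 4.3.3. Fold changes on this log2(value + 1) scale understate changes of low miRNAs. On simulated reads, 191 of 349 tested miRNAs were changed by 2 on the log2 scale. The adjusted p threshold of 0.2 found 100% of these, and 9.48% of calls were false. The log2 fold changes of the members were at most 0.39 in size in the main test. Recovery of changes that small was not tested. Permutation tests and Wilson intervals used scipy 1.17.1 in Python 3.11.15. Alternatives were other scalings, filters, pseudocounts and tests (DESeq2 1.42.0 among them), the replicate block and leaving out each library.

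Named miRNAs were the 7 members, the 10 relatives, 2 lists for other cell types and the 5 miRNAs closest to the cluster sum. In addition, bta-miR-202 and bta-miR-125b were named after the values had been seen. The members and lists were chosen with earlier results of these data known. Names and neighbours came from RefSeq (ARS-UCD2.0), in which 16 of 16 hairpin names matched. That is not the mapping assembly, so no positions are given, and sequences were not used here.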

Additional observations from a re-analysis of the deposited data

How the results depend on the processing

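The number of members past either threshold was 0 under all 20 alternatives. Of 140 comparisons of a member under an alternative, 129 kept their direction and 11 changed sign, with log2 fold changes from -0.53 to 0.62 and adjusted p-values of 0.247 to 0.997. bta-miR-17-5p, bta-miR-17-3p and bta-miR-18a stayed negative and bta-miR-19a positive in each of the 20. Upper quartile factors moved the median of the tested miRNAs to -0.18. With them bta-miR-20a, bta-miR-19b and bta-miR-92a were at -0.12, -0.15 and -0.16, the groups did not overlap for 3 members against 1 (22.7% of tested miRNAs against 20%), and the summed level differed by -3386.9 against 142. With the edgeR quasi-likelihood test bta-miR-92a was at -0.0302. When a library was left out, the ranges were -0.0052 to 0.17 for bta-miR-20a, -0.085 to 0.24 for bta-miR-19b and -0.20 to 0.25 for bta-miR-92a. The cause was not tested.

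Without single libraries the number of members whose groups did not overlap ran from 1 to 3, and the number of pairs of members from 6 to 10. With 2 libraries left in a group, 26% to 37.5% of tested miRNAs and 28% to 37.2% of their pairs did not overlap under the same settings. The count was 2 members without control replicate 1, 2 or 3 or HS replicate 2, and 3 without HS replicate 3 (26.8% of tested miRNAs). For pairs the count was 10 without control replicate 3 or HS replicate 2 (28% and 28.9% of all pairs). The summed difference ran from -2015.4 to 2434.3, and the difference in the 5p share from -0.85 to 0.70 points. For bta-miR-93 the adjusted p was at most 0.2 under 5 of 20 alternatives, with log2 fold changes of -0.45 with upper quartile factors (0.197), -0.27 with a mean of at least 10 (0.154), -0.29 with limma-voom (0.161) and -0.29 with edgeR without (0.158) and with the block (0.193).

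Same-numbered libraries correlated in their deviations from the group means at 0.421, -0.117 and 0.616. These values alone do not settle whether the numbers pair the libraries, and the main test did not pair them. With the replicate number as a block, 0 members passed either threshold in limma or edgeR, and for bta-miR-17-5p the limma adjusted p was 0.421.

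At its lowest read count the counting error of a member ran from 0.452% for bta-miR-92a to 8.48% for bta-miR-19a.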
